A study of Mus musculus with 10 samples.

Results

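Prostate orthografts grown from CP1 cells were compared with those grown from P1 cells, taking every tumour whose tissue label names either line. This gave 6 of the 10 tumours in the series, 3 of each line, and the other 4 were grown from the related line CP2. The CP2 donor was 8 months old and is listed with the same Ctnnb1 allele. The hosts were male CD-1 Nude mice, athymic and so short of T cells, and the cells had been placed in an anterior lobe of the prostate. P1 was derived from the prostate tumour of a mouse 14 months old. CP1 came from a prostate tumour of a mouse 6 months old whose genotype is given as Ctnnb1pc(ex3)Δ/+, a deletion in 1 allele of Ctnnb1 that removes the part of beta-catenin marking it for degradation. The genotypes of P1 and CP1 differ in more than this deletion. Each group is 1 line, so line, genotype and donor age change together and cannot be told apart here. Each line was passed through spheroids in Matrigel and then grown in monolayer before grafting, and the tumours contain host cells. No label ties a library to an animal of its own, so a p-value speaks only for the spread between these samples, which may be technical.

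Beta-catenin has a place in cell junctions, where it binds cadherins, and a place in the nucleus, where it serves Wnt signalling as a partner of the TCF and LEF factors. Epithelia of the stomach, gut and liver take their identity from a small set of transcription factors, among them HNF4A, the ONECUT, CDX and GATA factors and FOXA2 and FOXA3. HNF4 proteins bind promoters of genes for digestion, lipid transport and the brush border. The prostate arises from the urogenital sinus, next to the hindgut, and its normal luminal cells secrete into a duct lined by keratin-rich cells.

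The promoters of a few genes that fell in CP1 carried letters favoured by HNF4 proteins. The pattern CAAAGTCCA, searched on both strands, was present in 63 of 15242 promoter windows of tested genes (0.413%). It was present in 12 of 1221 windows (0.983%) of genes lower in CP1 in a test against a 2-fold change, and in 4 of 849 (0.471%) of genes higher in that test. The 12 windows belong to 10 genes, since Gimd1 and Tmcc3 each have a pair of windows that share the stretch. The pattern was in 0 of 15 windows of the intestinal and foregut list, 0 of 12 of the brush border list and 0 of 9 of the foregut and liver transcription factors. These windows cover 13 of 21, 10 of 12 and 6 of 14 tested members. For a pattern this rare, so few windows cannot show whether the lists lack it. The windows run from 250 bases before to 50 bases after a gene start and come from RefSeq (GRCm38.p6). In 6 of the 12 windows the match began within 100 bases before the start, against 10 of 51 windows with a match among other tested genes. The 6 include the Gimd1 stretch in both of its windows, and the difference was not tested. The 3 stretches shown are those in which the gene averaged at least 5 CPM (counts scaled to library depth, with TMM scaling between tumours) in P1 and the stretch lies wholly before the start. They show the same letters, on either strand, in genes of unlike function. Each is read 5′ to 3′ along the gene's own strand, and capitals mark the match.
Trpv6 (calcium channel of absorptive epithelia, chr6:41636516-41636584, minus strand): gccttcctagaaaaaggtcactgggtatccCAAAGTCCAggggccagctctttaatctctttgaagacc
Muc13 (membrane mucin of gut epithelium, chr16:33794273-33794341, plus strand): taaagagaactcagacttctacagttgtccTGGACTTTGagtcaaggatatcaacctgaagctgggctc
Tmem150b (membrane protein, chr7:4725285-4725353, minus strand): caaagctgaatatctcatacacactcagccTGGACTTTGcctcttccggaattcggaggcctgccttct

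That these 3 genes are lower in CP1 follows from how they were chosen, and their values are given as a description. Muc13 stood at 29.1, 100.5 and 32.3 CPM in P1 and 1.13, 0.187 and 1.45 CPM in CP1, a log2 fold change of -5.90 ± 0.83. Log2 fold changes are those of CP1 over P1 and carry their SE, and p-values come from edgeR's quasi-likelihood test adjusted over all genes. Tmem150b stood at 9.30, 15.7 and 15.5 CPM in P1 and 0.65, 0.404 and 0.196 CPM in CP1 (log2 -4.99 ± 0.46, adjusted p = 4.913e-04). Trpv6 stood at 14.5, 29.6 and 1.79 CPM in P1 and 0.205, 0.187 and 0.0392 CPM in CP1 (log2 -6.66 ± 1.18, adjusted p = 0.0052). Its value was -3.55 without P1 replicates 1 and 2, and its call was lost without CP1 replicates 2 and 3 (adjusted p = 0.109). The TCF and LEF pattern, CTTTGAT or CTTTGAA, was in 959 windows (6.29%), and in 104 (8.52%) of the lower and 66 (7.77%) of the higher genes. The HNF4 pattern and the reverse of the TCF and LEF pattern share the letters CAAAG, so that 1 stretch can match both. A match is only a likeness of letters. The patterns were chosen with the results known, and no test is attached.

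Host tissue was carried into the tumours unevenly. Transcripts of the seminal vesicle (7 Svs genes and Pate4) made up 14.9%, 6.85% and 1.79% of all counts for P1 replicates 1, 2 and 3, and at most 0.00273% in CP1. Uroplakins, which coat the bladder lining, took 0.00522%, 0.126% and 0.0497% in CP1 replicates 1, 2 and 3 and at most 0.00422% in P1. Secretions of normal prostate (3 genes, among them Pbsn and Tgm4) took 0.0813%, 0.0206% and 0.221% in P1 and 0.066%, 0.000246% and 0.000155% in CP1. Each gene was therefore fitted again without P1 replicates 1 and 2 and without CP1 replicates 2 and 3, and a call that held in all 3 fits is here termed host-checked. These fits leave out the tumours with the most seminal vesicle or uroplakin transcripts of their line. The tumours kept, P1 replicate 3 and CP1 replicate 1, hold the most prostate secretion of theirs. The check does not remove host transcripts: of 15 seminal vesicle genes tested, 13 were called lower, 4 of them host-checked. Libraries held 25081535 to 37180721 counts, at which 3 counts in a library are 0.0807 to 0.120 CPM. The first principal component held 89.8% of the variance of the most variable genes and separated the lines. The title of CP2 replicate 1 names CP1 while its tissue label names CP2. Its mean correlation was 0.984 with the other CP2 tumours and 0.917 with CP1, and it takes no part in the comparison. Of 10 endothelial markers 0 were called, and of 10 macrophage markers 1 was higher and 0 lower. Of 10 smooth muscle markers 1 was higher, and 8 followed the seminal vesicle order within P1. In bulk tumours, fewer cells of a type and less RNA per cell cannot be told apart.

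**Figure D1:**
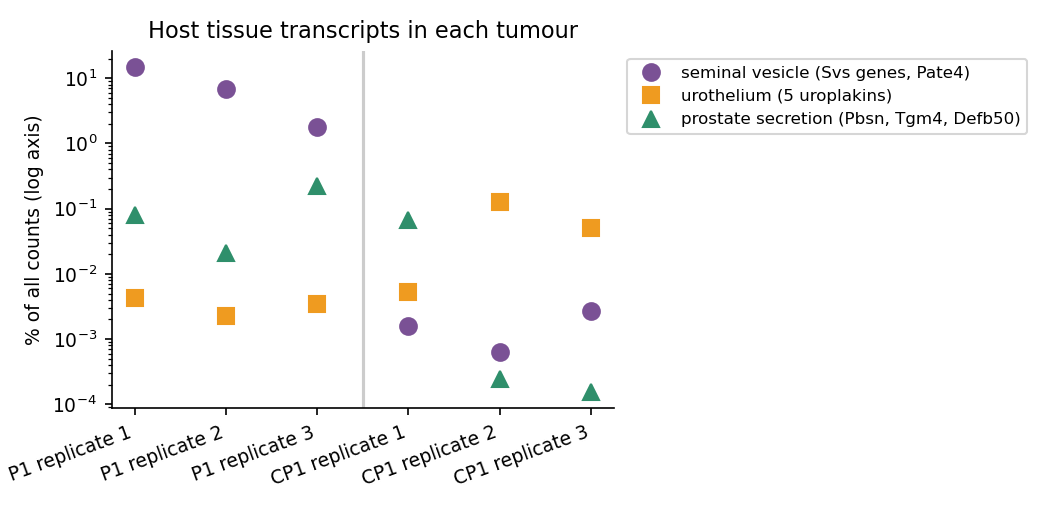
Share of all counts (%, log axis) taken by transcripts of host seminal vesicle, urothelium and prostate secretion in each of the 6 tumours, 1 symbol per tumour and tissue. Seminal vesicle transcripts fall from 14.9% to 1.79% across the P1 tumours, and uroplakins are highest in CP1 replicates 2 and 3.

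Across 17051 genes tested, 6134 (36%) were called at an adjusted p below 0.05 (edgeR quasi-likelihood test): 2952 (17.3%) were higher in CP1 and 3182 (18.7%) lower. Host-checked calls numbered 1021 (5.99%) higher and 1021 (5.99%) lower. In the test against a 2-fold change 937 (5.5%) were higher and 1315 (7.71%) lower, and these genes are said to be past 2-fold. The tumours of the lines did not overlap in 8823 genes (51.7%). Among called lower genes 157 (4.93%) followed the seminal vesicle order within P1, and among called higher genes 105 (3.56%) followed the uroplakin order within CP1, against 6.29% and 6.35% of all genes tested. The counts of each gene group are read against these shares.

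Ctnnb1 itself (ENSMUSG00000006932, chromosome 9: 120929216 to 120960507) stood at 1739, 1889 and 1864 CPM in P1 and 1134, 878 and 1098 CPM in CP1. All 3 CP1 tumours were lower (log2 -0.82 ± 0.17, adjusted p = 0.0108). The call was lost without CP1 replicate 2 (log2 -0.68, adjusted p = 0.0552) and in both of the fits that make up the host check (adjusted p = 0.059 without P1 replicates 1 and 2 and 0.229 without CP1 replicates 2 and 3). Counts summed over the gene do not check the deleted exon. Of 25 genes that report or restrain beta-catenin signalling, 10 rose (6 host-checked) and 6 fell (3 host-checked), and the median of the 25 was log2 -0.17 against -0.02 over all genes. Of the falls 3 were called without CP1 replicates 2 and 3.

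Inhibitors of the pathway were among the members that rose. Apcdd1, a membrane inhibitor of Wnt receptors, stood at 28, 8.32 and 11.3 CPM in P1 and 704, 1006 and 553 CPM in CP1 (log2 5.57 ± 0.57, adjusted p = 6.617e-04). Axin2, a scaffold of the complex that degrades beta-catenin, had 30.8, 34.2 and 18.2 CPM in P1 and 199, 215 and 208 CPM in CP1 (log2 2.90 ± 0.24, adjusted p = 3.404e-04). Notum, an enzyme that removes the lipid from Wnt proteins, stood at 5.93, 4.34 and 4.26 CPM in P1 and 47.2, 56.5 and 21.5 CPM in CP1 (log2 3.11 ± 0.38, adjusted p = 0.0013). In all 3 the CP1 tumours lay above every P1 tumour. Nkd1 rose as well, by log2 2.18 ± 0.37, while its relative Nkd2 fell from 99.3, 70.0 and 60.9 CPM in P1 to 5.33, 10.1 and 9.96 CPM in CP1 (log2 -3.18 ± 0.31, adjusted p = 5.912e-04). Ephb2, a receptor that sets cell position in the intestinal crypt, fell, at log2 -2.76 ± 0.21. Lgr5, the crypt stem cell receptor, stood at 12.6, 9.14 and 5.55 CPM in P1 and 5.33, 3.83 and 2.78 CPM in CP1, with the lowest P1 tumour near the highest CP1 tumour. Its call (log2 -1.19 ± 0.38, adjusted p = 0.0474) was lost in 6 of the 9 fits that left tumours out. Ccnd1, a cyclin often given as a target, was not called at 410.0 ± 63.6 CPM in P1 and 356 ± 47.2 CPM in CP1 (SD, n = 3).

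Genes of the gut and liver type were lower in CP1, among them regulators, surface proteins and secreted products. Rose and fell in this text mean higher and lower in CP1 than in P1, lines from different mice. Whether P1 gained or CP1 lost these transcripts was not tested. Of 21 genes of intestinal and foregut epithelium, 21 fell and 0 rose, 15 of the falls host-checked, with a median of log2 -7.58. This list was drawn up with the lower level already known, and its count is not independent evidence. Summed over the 21 genes, the level was 1561, 2713 and 2818 CPM in P1 and 28.9, 35.2 and 34.3 CPM in CP1. P1 replicate 1, which held the most seminal vesicle transcripts, was the lowest P1 tumour in 19 of the 21.

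Transcription factors of foregut and liver epithelia were lower as well, in a list likewise drawn up after values were seen. Of 14 factors, 11 fell (9 host-checked) and 2 rose, of which 1 was called without CP1 replicate 1 or 3 or without P1 replicate 2 or 3. Hnf4a (ENSMUSG00000017950, chromosome 2: 163506808 to 163572910), the nuclear receptor of liver and gut epithelium, stood at 233, 251 and 256 CPM in P1 and 6.02, 0.187 and 0.706 CPM in CP1 (log2 -6.74 ± 1.10, adjusted p = 0.0039). CP1 replicate 1, which also held host prostate transcripts, was the highest of the CP1 tumours. Onecut2, a homeobox factor of liver and gut, stood at 217, 236 and 179 CPM in P1 and 0.581, 0.342 and 0.274 CPM in CP1 (log2 -9.02 ± 0.29, adjusted p = 3.864e-05). Cdx2 (ENSMUSG00000029646, chromosome 5: 147300805 to 147307270), the homeobox factor that sets intestinal identity, stood at 12.5, 21.4 and 20.6 CPM in P1 and 0.0684, 0.0622 and 0.118 CPM in CP1 (log2 -7.74 ± 0.40, adjusted p = 7.662e-05). No CP1 tumour came near P1 in Onecut2 or Cdx2.

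Gata5 and Foxa2 fell, at log2 -5.80 ± 0.58 and -4.53 ± 0.56. Foxa1, a pioneer factor of prostate and other epithelia, went the other way, from 55.9, 42.5 and 49.4 CPM in P1 to 84.7, 138 and 96.3 CPM in CP1 (log2 1.11 ± 0.21, adjusted p = 0.0066). The Foxa1 call was lost in both of the fits that make up the host check (adjusted p = 0.0821 and 0.0591). Gata6 was not called (log2 0.09 ± 0.24, adjusted p = 0.799).

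**Figure D2:**
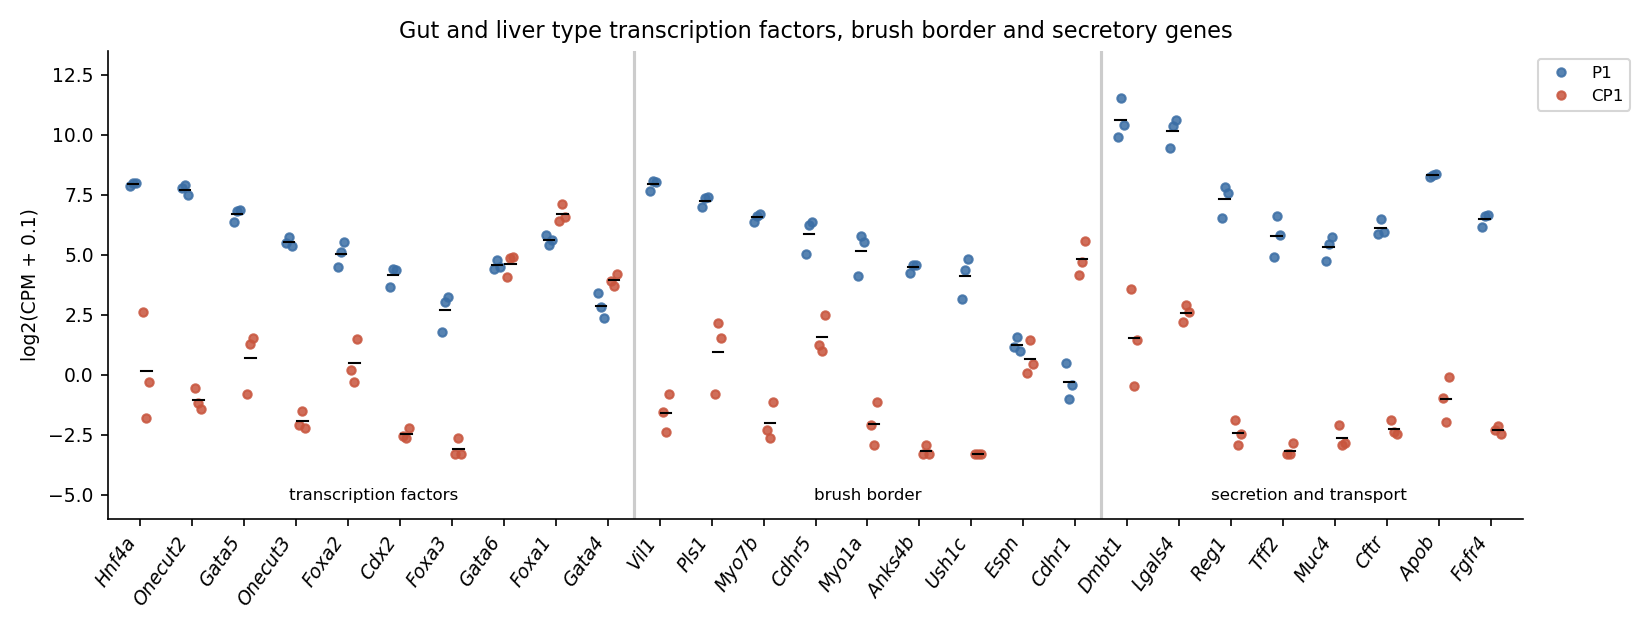
Level of each gene in each tumour as log2(CPM + 0.1), P1 in blue and CP1 in red, with black bars for the mean of 3 tumours. The CP1 tumours lie below the P1 tumours in 7 of the 10 transcription factors shown, and Gata6 overlaps.

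Genes of the brush border, the microvilli of absorptive cells, fell with them. Of 12 members of a list drawn up after values were seen, 10 fell, all 10 of them host-checked, and 1 rose. Vil1, which bundles and severs the actin of microvilli, stood at 202, 273 and 264 CPM in P1 and 0.239, 0.0933 and 0.47 CPM in CP1 (log2 -9.88 ± 0.44, adjusted p = 6.198e-05). Myo7b, a myosin of the links between microvilli, stood at 82.6, 99 and 104 CPM in P1 and 0.103, 0.0622 and 0.353 CPM in CP1 (log2 -9.15 ± 0.43, adjusted p = 7.389e-05). Its partners Ush1c and Anks4b were at 0 counts and 1 count over the CP1 tumours, at least 537-fold lower and 1919-fold (exact 95% interval 344 to 75839) lower. The CP1 tumours were thus close to empty of each of these. Cdhr5, a cadherin of the microvillar tip, fell, at log2 -4.30 ± 0.55. The exception was Cdhr1, a cadherin best known from photoreceptors, which rose from 1.31, 0.392 and 0.644 CPM in P1 to 17.5, 26 and 47.6 CPM in CP1 (log2 5.26 ± 0.58, adjusted p = 9.032e-04).

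Secreted and surface products of such epithelia fell as well. Dmbt1, a mucosal scavenger protein, stood at 947, 2932 and 1360.4 CPM in P1 and 11.9, 0.622 and 2.63 CPM in CP1 (log2 -8.43 ± 1.26, adjusted p = 0.0027). Lgals4, a galectin of the gut surface, stood at 690.5, 1334 and 1566 CPM in P1 and 4.51, 7.40 and 6 CPM in CP1 (log2 -7.65 ± 0.44, adjusted p = 1.011e-04). The trefoil factor Tff2 had 1 count over the CP1 tumours and was 5380.1-fold (exact 95% interval 965 to 212539) lower. Of 8 mucin genes, 7 fell (6 host-checked), among them Muc4 at 26.7, 43.4 and 53.4 CPM in P1 and 0.137, 0.0311 and 0.0392 CPM in CP1. Reg1, a secreted lectin whose near copies could share reads, stood at 93.3, 229 and 191 CPM in P1 and 0.171, 0.0311 and 0.0784 CPM in CP1. CP1 held little of these products. Cftr, the chloride channel of secretory epithelia, stood at 57.6, 90.5 and 62.4 CPM in P1 and 0.171, 0.0933 and 0.0784 CPM in CP1 (log2 -9.20 ± 0.35, adjusted p = 5.279e-05). The potassium channel subunits Kcnq1 and Kcne3, which act together in the gut, fell, at log2 -5.49 ± 0.40 and -4.85 ± 0.28. Slc39a4, the intestinal zinc importer, stood at 209, 297 and 342 CPM in P1 and 1.85, 1.77 and 3.21 CPM in CP1. In each of these genes the highest CP1 tumour lay below the lowest P1 tumour.

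Some products typical of liver were lower too, while several families that handle drugs were called in both directions. Apob, the protein core of lipoproteins, stood at 304, 320.0 and 328 CPM in P1 and 0.41, 0.156 and 0.823 CPM in CP1 (log2 -9.46 ± 0.49, adjusted p = 7.662e-05). The acute phase gene Crp was at 1 count over CP1, 3123-fold (exact 95% interval 560.1 to 123388) lower. Both were near 0 in CP1. Of 16 UDP-glucuronosyltransferases and sulfotransferases, 12 fell (7 host-checked) and 0 rose, and 7 were lower without P1 replicates 1 and 2. Sult1c2, a cytosolic sulfotransferase, stood at 32.2, 72.3 and 75 CPM in P1 and 0.274, 0 and 0.0392 CPM in CP1. Of 37 cytochrome P450 genes, 15 fell (10 host-checked) and 8 rose (3 host-checked), with a median of log2 -0.16 and Cyp3a13 down at log2 -6.48 ± 0.68. Without P1 replicates 1 and 2, 5 of them were higher. Of 24 glutathione transferases 7 rose (29.2%, 4 genes without CP1 replicate 2 or without CP1 replicate 3) and 6 fell (25%). In these transferases 0 rises and 1 fall were host-checked. Of 40 ABC transporters 8 rose and 9 fell (5 without CP1 replicate 3). These shares, 20% and 22.5%, are close to the 17.3% and 18.7% of all genes tested. Of 19 aldehyde dehydrogenases 6 rose (31.6%) and 4 fell (21.1%). The glucuronosyltransferase Ugt2b34 stood at 226, 412 and 345 CPM in P1 and 1.98, 54.6 and 32.7 CPM in CP1, in the uroplakin order within CP1, and its log2 fold change was -3.46 over all tumours and -7.33 without CP1 replicates 2 and 3. It lost its call in 5 of the 9 fits that left tumours out.

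Several genes that attach epithelial cells to each other and to the basement membrane were lower in CP1. Of 15 epithelial markers 10 fell (8 host-checked) and 0 rose. Of these 15, 11 followed the uroplakin order within CP1, and the part of urothelial RNA in their remaining level was not tested. Cdh1, E-cadherin, stood at 1261, 1343 and 1519 CPM in P1 and 24.2, 97.3 and 59.3 CPM in CP1 (log2 -4.51 ± 0.52, adjusted p = 0.0010). Cldn2, the claudin of leaky epithelia, stood at 529.7, 708 and 571 CPM in P1 and 1.03, 0.84 and 1.57 CPM in CP1 (log2 -9.05 ± 0.32, adjusted p = 5.013e-05) and did not follow that order. Of 14 claudins 6 fell and 0 rose.

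Lama3 and Lamb3, laminin chains of the basement membrane that anchors epithelial sheets, fell together. Lama3 stood at 154, 134 and 75.8 CPM in P1 and 4.48, 11.4 and 8.74 CPM in CP1 and Lamb3 at 290.3, 268 and 288 CPM in P1 and 7.01, 21.7 and 27.8 CPM in CP1. Their log2 fold changes were -3.88 ± 0.42 and -3.91 ± 0.49, with adjusted p of 8.565e-04 and 0.0014. Itgb4, the integrin chain that binds epithelial laminin in hemidesmosomes, fell, at log2 -3.56 ± 0.47, while its partner Itga6 was not called at 345, 385 and 323 CPM in P1 and 386, 340.1 and 623 CPM in CP1. In a list of 9 genes of hemidesmosomes and their laminin, drawn up after values were seen, 4 fell and 1 rose, each host-checked. The median of that list was log2 0.36, so it was not lower as a whole. Of 11 laminin genes 3 rose (27.3%) and 4 fell (36.4%), against 17.3% and 18.7% of all genes tested. Among the rises, Lamb1 stood at 108, 45.4 and 60.4 CPM in P1 and 434, 383 and 429 CPM in CP1 (log2 2.54 ± 0.33, adjusted p = 0.0015) and Lamc1 at 230.2, 129 and 129 CPM in P1 and 509, 499 and 528 CPM in CP1 (log2 1.65 ± 0.25, adjusted p = 0.0030). The fibronectin receptor chain Itga5 stood at 142, 69.5 and 82.1 CPM in P1 and 373, 374 and 564 CPM in CP1 (log2 2.16 ± 0.32, adjusted p = 0.0026), and Itga2, a collagen receptor chain, fell, at log2 -3.92 ± 0.53.

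In several other gene families a member was high in P1 and another high in CP1. The pairs were picked for their opposite calls, and 36% of all genes tested were called. Of 13 cadherins 2 rose and 7 fell, and of 13 connexins and pannexins 4 rose and 5 fell. Of 9 galectins 2 rose and 4 fell, and of 15 FGF ligands and receptors 1 rose and 5 fell. Cdh2, N-cadherin, stood at 5.04, 5.10 and 4.33 CPM in P1 and 40.3, 26.2 and 32.7 CPM in CP1 (log2 2.78 ± 0.21, adjusted p = 2.202e-04), opposite to Cdh1. Among the connexins, which form channels between cells, Gjb1 fell from 67.7, 120.2 and 139 CPM in P1 to 1.68, 1.65 and 1.76 CPM in CP1, and Gja1 rose from 96.4, 74.3 and 70.1 to 208, 320.4 and 294 CPM. Among the syndecans, cell surface proteoglycans, Sdc1 fell, at log2 -1.72 ± 0.19 and Sdc3 rose from 129, 71.6 and 77.1 CPM in P1 to 1212, 1086 and 1184 CPM in CP1 (log2 3.65 ± 0.27, adjusted p = 2.373e-04). Among the galectins Lgals1 stood at 395, 242 and 333 CPM in P1 and 4039, 3099 and 3250.5 CPM in CP1 (log2 3.42 ± 0.26, adjusted p = 2.506e-04), opposite to Lgals4. Among the TEAD factors, which carry YAP to DNA, Tead2 fell, at log2 -3.00 ± 0.38 and Tead1 rose by log2 1.90 ± 0.20. Among FGF receptors Fgfr4 stood at 71.9, 98.8 and 99.3 CPM in P1 and 0.103, 0.124 and 0.0784 CPM in CP1 (log2 -9.71 ± 0.26, adjusted p = 2.294e-05) and Fgfr1 at 71.1, 39.1 and 43.1 CPM in P1 and 137, 155 and 184 CPM in CP1 (log2 1.63 ± 0.25, adjusted p = 0.0031). In each of these genes the tumours of the lines did not overlap, as was the case for 51.7% of all genes tested.

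**Figure D3:**
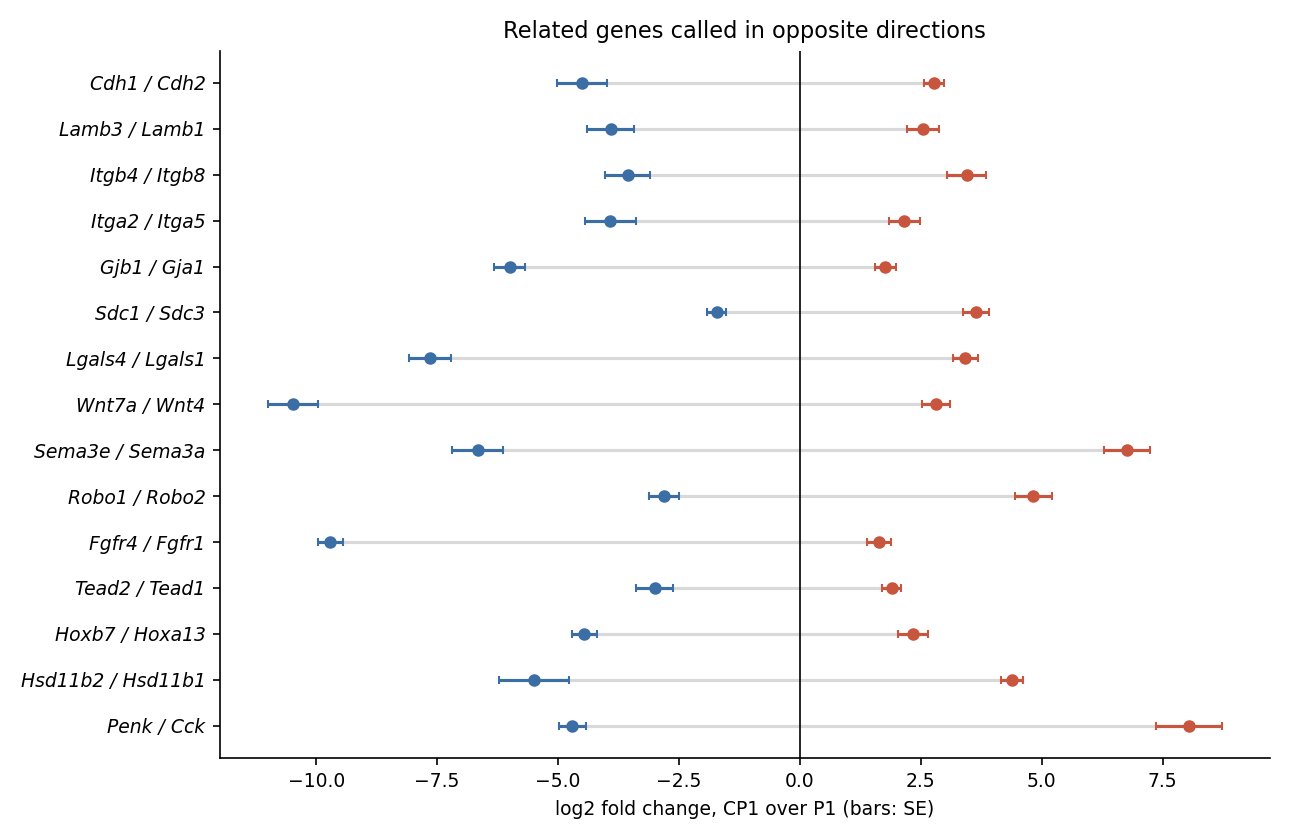
Log2 fold change of CP1 over P1 with its SE for 15 pairs of genes of the same family or list, the member lower in CP1 in blue and the member higher in CP1 in red. The pairs were picked for their opposite calls, so the plot describes and does not test them.

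CP1 tumours held more RNA for collagen VI and for several proteins that link matrix fibres. Of 40 collagen genes 15 rose (12 host-checked) and 5 fell (0 host-checked), the falls numbering 0 without CP1 replicates 2 and 3 and 3 without P1 replicates 1 and 2. P1 replicate 1, richest in seminal vesicle transcripts, was the highest P1 tumour in 32 of the 40. By the ordering rule used here 14 of the 40 followed the seminal vesicle order within P1, against 6.29% of all genes tested. Whether host tissue supplied this collagen was not tested. Summed collagen stood at 15424, 9579 and 7936 CPM in P1 and at 39659.9, 31023 and 30207 CPM in CP1. Summed collagen thus ranked as the seminal vesicle transcripts did within P1, and every CP1 tumour stood above every P1 tumour. Of 10 fibroblast markers 3 were higher and 1 lower, and 1 was higher without CP1 replicate 1 or without CP1 replicate 3.

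Col6a1, a chain of the beaded filaments of collagen VI, stood at 284, 218 and 216 CPM in P1 and 3438, 2894 and 3615 CPM in CP1 (log2 3.79 ± 0.22, adjusted p = 1.011e-04). Col6a2 stood at 215, 172 and 187 CPM in P1 and 2041, 1709 and 2017 CPM in CP1 (log2 3.33 ± 0.18, adjusted p = 9.167e-05). Col6a5, which can replace another chain of the filament, stood at 7.48, 10.6 and 26.7 CPM in P1 and 492, 322 and 399 CPM in CP1 (log2 4.76 ± 0.53, adjusted p = 9.278e-04). The tumours of the lines were far apart in all 3 chains. Col5a1, which nucleates collagen fibrils, rose by log2 2.87 ± 0.32, and Col18a1, the basement membrane collagen that holds endostatin, by log2 2.02 ± 0.28. Col10a1, the collagen of growth plate cartilage, fell from 204, 44.5 and 66.9 CPM in P1 to 4, 5.10 and 4.51 CPM in CP1, and its call was lost without CP1 replicates 2 and 3 (adjusted p = 0.0503).

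Of 39 elastic fibre and matricellular genes 17 rose (11 host-checked) and 3 fell, of which 1 was called without CP1 replicate 3 or without P1 replicates 1 and 2. Efemp1, fibulin-3, stood at 139, 173 and 233 CPM in P1 and 1078, 1389 and 1131 CPM in CP1 (log2 2.72 ± 0.24, adjusted p = 4.110e-04). Fbln7 stood at 5.28, 2.71 and 2.68 CPM in P1 and 165, 84.8 and 104 CPM in CP1 (log2 5.05 ± 0.40, adjusted p = 2.796e-04). Fbln2 ran against them, at 1168, 753 and 847 CPM in P1 and 128, 91.8 and 128 CPM in CP1 (log2 -2.99 ± 0.24, adjusted p = 3.098e-04). Members of the fibulin family thus differed in direction. Loxl3, which crosslinks collagen and elastin, rose by log2 3.69 ± 0.41. The serine protease Htra1, which cuts matrix proteins, stood at 38.8, 29.9 and 29.8 CPM in P1 and 1721, 1445 and 1099.6 CPM in CP1 (log2 5.44 ± 0.26, adjusted p = 7.607e-05). Timp2, an inhibitor of matrix metalloproteinases, rose by log2 1.51 ± 0.19.

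Clusterin and osteopontin, among the most abundant products of P1, fell. Clu, the secreted chaperone clusterin, stood at 9507, 10553 and 7218 CPM in P1 and 197, 104 and 75.2 CPM in CP1 (log2 -6.18 ± 0.48, adjusted p = 2.629e-04), and within CP1 it followed the order of the host prostate signal. Spp1, osteopontin, stood at 5076, 4257 and 4565 CPM in P1 and 963, 419 and 358 CPM in CP1 (log2 -3.00 ± 0.42, adjusted p = 0.0021), again highest of the CP1 tumours in replicate 1. Krt8, Krt18 and Krt19, keratins of simple epithelia, fell, at log2 -4.85 ± 0.65, -2.62 ± 0.34 and -3.06 ± 0.41, all 3 host-checked. Chil4, a chitinase-like lectin with near copies, stood at 168, 442 and 7153 CPM in P1 and 2.46, 1.80 and 2.70 CPM in CP1. P1 replicate 3 held most of it, and the call was lost without CP1 replicates 2 and 3 (adjusted p = 0.118).

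Secreted signals differed in which member of a family was made. Of 13 Wnt ligands 5 rose, all 5 host-checked, and 6 fell (2 host-checked, 3 called in either of those fits alone). Wnt4, a ligand of reproductive tract and kidney development, stood at 70.9, 83.6 and 108 CPM in P1 and 675, 775 and 407 CPM in CP1 (log2 2.82 ± 0.29, adjusted p = 7.173e-04). Wnt2 stood at 45.7, 27.2 and 29.2 CPM in P1 and 396, 259 and 246 CPM in CP1 (log2 3.14 ± 0.29, adjusted p = 4.804e-04). Wnt7a, an epithelial ligand, had 4 counts over the CP1 tumours and stood at 91.7, 56.6 and 68.3 CPM in P1 and 0.0342, 0 and 0.118 CPM in CP1 (log2 -10.48 ± 0.52, adjusted p = 7.662e-05). Wnt7b fell, at log2 -2.45 ± 0.27.

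Of 34 BMP and GDF ligands, receptors and antagonists 12 rose (5 host-checked) and 6 fell (1 host-checked). The falls numbered 3 without CP1 replicate 2 and 1 without P1 replicates 1 and 2, and 6 members rose without CP1 replicates 2 and 3. Bmp2 stood at 11, 6.48 and 7.37 CPM in P1 and 193, 200.2 and 229.7 CPM in CP1 (log2 4.65 ± 0.24, adjusted p = 7.662e-05). Grem1, an antagonist that binds BMP2, stood at 2, 0.543 and 0.68 CPM in P1 and 80.0, 31.4 and 74.5 CPM in CP1 (log2 5.83 ± 0.63, adjusted p = 8.386e-04). The ligand and its antagonist were thus both higher in every CP1 tumour. Nrg1, a ligand of ErbB receptors, rose by log2 2.56 ± 0.27, while the receptor Erbb3 fell, at log2 -3.50 ± 0.59 and lost its call without P1 replicates 1 and 2 (adjusted p = 0.0668). The Notch ligand Dll1 fell from 25.9, 34.3 and 30.1 CPM in P1 to 4.10, 3.83 and 4.90 CPM in CP1 (log2 -2.82 ± 0.19, adjusted p = 1.574e-04).

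Guidance cues, which steer axons and vessels, were called in both directions. Of 20 semaphorins 5 rose (25%) and 9 fell (45%), against 17.3% and 18.7% of all genes tested. The rises numbered 3 without CP1 replicate 1 or P1 replicate 1 and 2 without P1 replicate 2, P1 replicate 3 or P1 replicates 1 and 2. Sema3a, a repellent that acts through neuropilin-1, stood at 5.90, 2.65 and 2.54 CPM in P1 and 528, 409 and 272 CPM in CP1 (log2 6.76 ± 0.48, adjusted p = 2.054e-04). Sema3e, which binds plexin-D1 directly, stood at 32.2, 60.0 and 52 CPM in P1 and 0.137, 0.653 and 0.627 CPM in CP1 (log2 -6.66 ± 0.53, adjusted p = 2.804e-04). The receptors Nrp1 and Plxnd1 both rose, by log2 1.80 ± 0.26 and 2.14 ± 0.30. Of the Slit receptors, Robo1 fell, at log2 -2.81 ± 0.31 and Robo2 rose from 2.03, 1.03 and 0.894 CPM in P1 to 39.7, 46.6 and 26.9 CPM in CP1 (log2 4.83 ± 0.39, adjusted p = 3.120e-04). Of 10 Eph receptors 6 fell and 1 rose, the rises numbering 0 without P1 replicates 1 and 2, and the ligand Efnb2 rose by log2 1.81 ± 0.16.

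CP1 tumours also held transcripts usually associated with nerve and endocrine cells. Gria4 (ENSMUSG00000025892, chromosome 9: 4417896 to 4796234), a subunit of AMPA glutamate receptors, stood at 0.656, 0.844 and 0.179 CPM in P1 and 114, 143 and 76.3 CPM in CP1 (log2 7.59 ± 0.51, adjusted p = 1.634e-04). Grik2 (ENSMUSG00000056073, chromosome 10: 49094833 to 49788766), a subunit of kainate glutamate receptors, stood at 0.298, 0.211 and 0.25 CPM in P1 and 53.2, 67.4 and 50.6 CPM in CP1 (log2 7.79 ± 0.23, adjusted p = 2.553e-05). Levels in P1 were low for both genes. Chrna1, the acetylcholine receptor subunit of muscle, rose by log2 6.69 ± 0.70. Nrcam and Lingo1, adhesion genes of neurons, rose by log2 4.53 ± 0.20 and 4.76 ± 0.45. The families as wholes did not follow. Of 10 glutamate receptor genes 3 rose and 2 fell (1 without CP1 replicate 1, CP1 replicate 2 or P1 replicate 1). Of 15 receptors for GABA, glycine and acetylcholine 4 rose and 4 fell (26.7% each). Of 16 leucine-rich neuronal adhesion genes 4 rose (25%) and 7 fell (43.8%), with a median of log2 -1.03. Over all genes tested the shares were 17.3% and 18.7%. Of 7 nerve and glia markers 1 was higher and 2 were lower. The higher one lost its call with any single tumour but P1 replicate 3 left out, and 1 was lower without CP1 replicate 2 or any one P1 tumour.

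Of 21 peptide hormones, neuropeptides and their processing genes 8 rose (6 host-checked) and 6 fell (2 host-checked, 3 called in either of those fits alone). Cck (ENSMUSG00000032532, chromosome 9: 121489824 to 121495694), cholecystokinin, stood at 6.53, 1.27 and 2.97 CPM in P1 and 1002, 779 and 1073 CPM in CP1 (log2 8.05 ± 0.68, adjusted p = 3.547e-04). Npy, neuropeptide Y, stood at 4.77, 3.98 and 6.01 CPM in P1 and 223, 76.1 and 236 CPM in CP1 (log2 5.18 ± 0.49, adjusted p = 5.125e-04). Calcb, a calcitonin gene-related peptide, stood at 3.16, 1.57 and 1.65 CPM in P1 and 202, 129.8 and 115 CPM in CP1 (log2 6.12 ± 0.39, adjusted p = 1.420e-04). In all 3 the lowest CP1 tumour lay more than 10 times above the highest P1 tumour. Cpe, which trims peptide precursors, rose by log2 2.93 ± 0.35. Penk, the enkephalin precursor, ran the other way, at 469, 406 and 308 CPM in P1 and 18.3, 11.3 and 16 CPM in CP1 (log2 -4.70 ± 0.27, adjusted p = 9.640e-05). The granin Chga, a general mark of endocrine cells, stood at 3.31, 4.01 and 6.44 CPM in P1 and 0.752, 0.218 and 0.0392 CPM in CP1. Its call as lower was lost without P1 replicates 1 and 2 (adjusted p = 0.0617).

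Steroid-handling enzymes changed in both directions. Of 14 genes of steroid hormone synthesis 4 rose (28.6%, 2 host-checked) and 5 fell (35.7%, 3 host-checked), with a median of log2 0.10. Over all genes tested 17.3% rose and 18.7% fell. Cyp11b1 (ENSMUSG00000075604, chromosome 15: 74834125 to 74841643), the last enzyme of glucocorticoid synthesis in the adrenal cortex, stood at 0.596, 0.121 and 0.25 CPM in P1 and 182, 144 and 279 CPM in CP1 (log2 9.26 ± 0.55, adjusted p = 1.080e-04). Hsd11b1, which regenerates active glucocorticoid in cells, stood at 17.9, 19.1 and 18.2 CPM in P1 and 406, 277 and 472 CPM in CP1 (log2 4.39 ± 0.23, adjusted p = 8.004e-05). Hsd11b2, which inactivates it, stood at 16.5, 23.9 and 23.2 CPM in P1 and 1.06, 0.218 and 0.118 CPM in CP1 (log2 -5.49 ± 0.72, adjusted p = 0.0016). The enzymes that activate and inactivate the hormone thus moved in opposite directions. Cyp21a1, which acts before Cyp11b1 in the pathway, stood at 16.4, 20.9 and 7.62 CPM in P1 and 0.0342, 0 and 0.118 CPM in CP1 (log2 -8.20 ± 0.78, adjusted p = 5.220e-04). The steps of the pathway were therefore not raised together. Cyp11a1, the first step, stood at 0.835, 0.724 and 1.68 CPM in P1 and 27.5, 10.5 and 56.2 CPM in CP1 and lost its call without P1 replicates 1 and 2 (adjusted p = 0.0803). Srd5a2, which makes dihydrotestosterone in the prostate, fell, at log2 -6.44 ± 0.63.

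**Figure D4:**
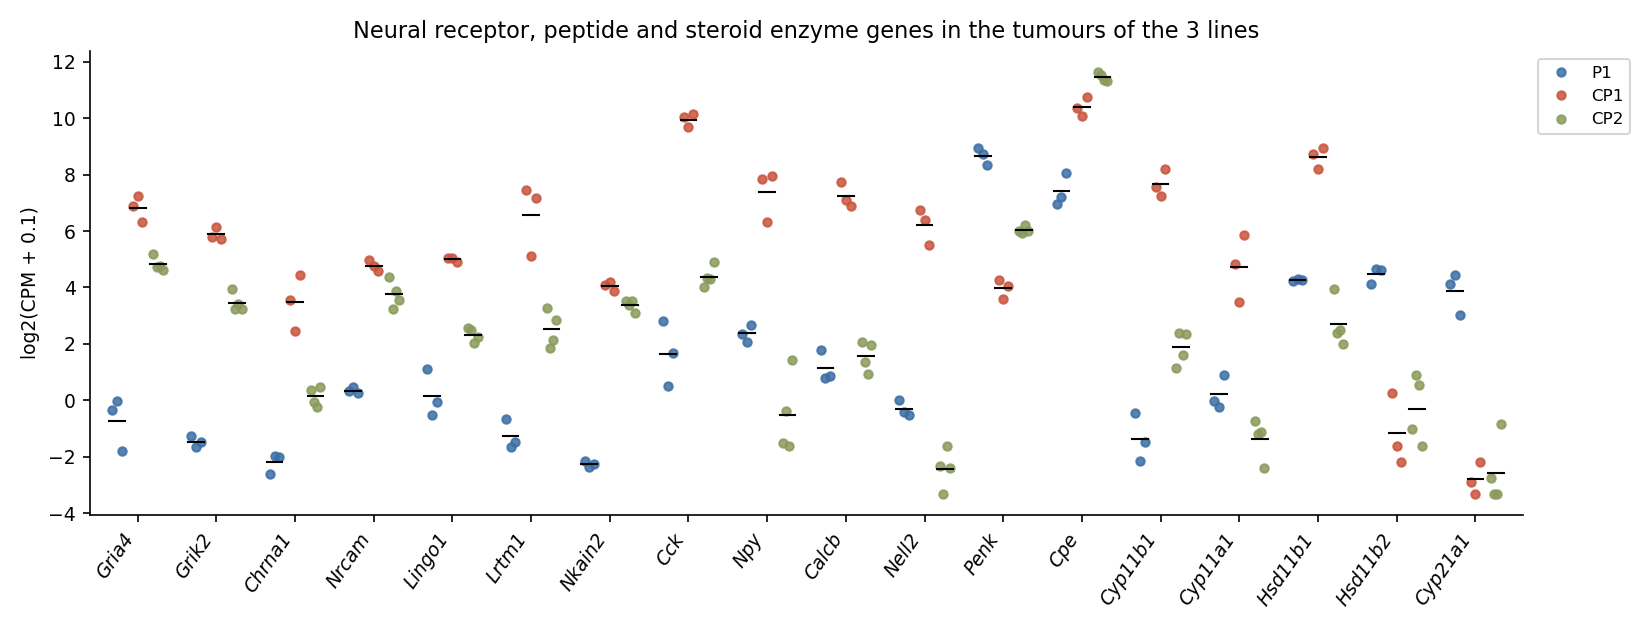
Level of each gene in each tumour as log2(CPM + 0.1), with P1 in blue, CP1 in red and CP2 in green and black bars for the mean, all 10 tumours scaled together. Cck, Npy, Calcb, Nell2, Cyp11b1 and Hsd11b1, among others, stand higher in every CP1 tumour than in any P1 or CP2 tumour. Every CP2 tumour stands above every P1 tumour in Cck, Cyp11b1, Nkain2 and Cpe, among others. In Npy, Nell2 and Hsd11b1 every CP2 tumour stands below every P1 tumour.

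The CP2 tumours differed from CP1 in some of these genes. In a fit of all 10 tumours 7635 of 17644 genes tested (43.3%) differed between CP2 and CP1 at an adjusted p below 0.05. Of the 175 called genes named here 102 did, 73 of them in the direction of P1 and 29 farther from it. The 73 were counted by direction alone and include genes in which CP2 passed the P1 level. Hsd11b1 is one, at 3.9 to 15.3 CPM in CP2 and 18.79 to 19.8 CPM in P1 with all 10 tumours scaled together. The genes were named for their CP1 values, which enter this difference too. In that fit the difference of CP2 from CP1 was log2 -5.50 ± 0.46 for Cck (adjusted p = 2.064e-05), -5.74 ± 0.40 for Cyp11b1 (adjusted p = 8.048e-06) and -5.71 ± 0.45 for Hsd11b1 (adjusted p = 1.528e-05). For Notum and Nkd2 the CP2 tumours were higher than CP1, by log2 3.65 ± 0.33 and 5.49 ± 0.31. For Hnf4a and Cdx2 it was -1.60 ± 0.95 and 0.63 ± 0.57, with wide errors at these low levels and no call. P1 is a shared control of both lines, so no overlap of their calls is given.

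Retinoid enzymes were called in both directions in the fit of all 6 tumours. Stra6, the cellular importer of retinol, stood at 115, 49.9 and 66 CPM in P1 and 705, 535 and 550.0 CPM in CP1 (log2 2.95 ± 0.34, adjusted p = 9.741e-04). Of the enzymes that make retinoic acid, Aldh1a3 fell from 120.4, 243 and 168 CPM in P1 to 13.9, 15.2 and 6.23 CPM in CP1 (log2 -3.90 ± 0.42, adjusted p = 8.251e-04). Aldh1a1 and Aldh1a2 rose by log2 2.64 ± 0.46 and 1.94 ± 0.37, and both calls were lost without P1 replicates 1 and 2 (adjusted p = 0.0702 and 0.0751). Of 21 retinoid genes 8 rose (38.1%, 2 host-checked) and 6 fell (28.6%, 3 host-checked), against 17.3% and 18.7% of all genes tested. The rises numbered 5 without P1 replicate 2 or without CP1 replicates 2 and 3, and 2 without P1 replicates 1 and 2.

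Genes of the ATF4 response, which cells turn on when amino acids run short or proteins misfold, were mostly higher. Of 20 members 12 rose (6 host-checked) and 1 fell (2 without P1 replicate 1), with a median of log2 0.84. Ddit3, a transcription factor of this response, stood at 11.6, 12.3 and 17.1 CPM in P1 and 77.7, 60.3 and 102 CPM in CP1 (log2 2.55 ± 0.25, adjusted p = 5.609e-04). Trib3, a pseudokinase, stood at 9.30, 9.41 and 8.94 CPM in P1 and 48.2, 38.2 and 48.7 CPM in CP1 (log2 2.29 ± 0.15, adjusted p = 1.388e-04). Atf5 stood at 70.5, 55.3 and 89.5 CPM in P1 and 295, 257 and 267 CPM in CP1 (log2 1.93 ± 0.19, adjusted p = 6.325e-04). The CP1 tumours lay above every P1 tumour in these 3. Asns, the asparagine synthetase often taken as its readout, was not called at 65.6, 50.4 and 60.8 CPM in P1 and 77.1, 65.9 and 55.3 CPM in CP1. In the mitochondrial folate branch Aldh1l2 rose from 7.09, 5.19 and 3.36 CPM in P1 to 78.8, 63.9 and 87.2 CPM in CP1 (log2 3.87 ± 0.30, adjusted p = 2.528e-04). Lipid storage genes Scd1, a desaturase, and Plin2, which coats lipid droplets, rose by log2 2.23 ± 0.30 and 2.23 ± 0.17. Elovl7, a fatty acid elongase, fell, at log2 -5.31 ± 0.27.

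Prostaglandin handling differed at synthesis, transport and receptor. Ptgs1, cyclooxygenase 1, stood at 80.5, 68.4 and 69.2 CPM in P1 and 249, 316 and 268 CPM in CP1 (log2 1.93 ± 0.14, adjusted p = 2.240e-04). Slco2a1, which carries prostaglandins into cells, stood at 78.1, 103 and 36.6 CPM in P1 and 538, 547 and 543 CPM in CP1 (log2 2.90 ± 0.37, adjusted p = 0.0014). Both were higher in every CP1 tumour than in any P1 tumour. Of the receptors for prostaglandin E2, Ptger2 rose by log2 2.74 ± 0.18 and Ptger3 fell, at log2 -3.14 ± 0.40, and Ptger1 and Ptger4 were not called. Ptgs2, cyclooxygenase 2, rose by log2 1.91 ± 0.32, a call lost without CP1 replicates 2 and 3 (adjusted p = 0.0567).

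Sensors of the innate immune system were lower in CP1. Of 27 Toll-like and NOD-like receptors 11 fell (8 host-checked) and 2 rose (1 without CP1 replicate 1). NAIP proteins and Nlrc4 form sensors of bacterial flagellin and secretion needles in gut epithelium and macrophages. Naip1, whose paralogs could share reads with it, stood at 15.3, 40.2 and 36.7 CPM in P1 and 0.239, 0.404 and 0.235 CPM in CP1. Nlrc4 stood at 32.7, 40.3 and 29.9 CPM in P1 and 1.20, 1.56 and 0.588 CPM in CP1 (log2 -4.93 ± 0.36, adjusted p = 2.125e-04). CP1 held little of either. Casp1, the protease that this sensor activates, ran opposite, at 5.22, 4.86 and 3.69 CPM in P1 and 45.4, 51.6 and 21.6 CPM in CP1 (log2 3.11 ± 0.36, adjusted p = 9.938e-04). Of 24 complement genes 9 fell and 1 rose, with C3 at 1023, 937 and 1025 CPM in P1 and 252, 164 and 171 CPM in CP1 (log2 -2.34 ± 0.21, adjusted p = 4.403e-04) and the regulator Cfi down at log2 -5.18 ± 0.28. The chemokine Ccl7, which draws monocytes, stood at 5.57, 6.06 and 10.7 CPM in P1 and 399, 122 and 280.3 CPM in CP1 (log2 5.17 ± 0.53, adjusted p = 6.800e-04), and Cxcl16 fell, at log2 -2.88 ± 0.36.

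All 10 markers of NK and T cells fell, 3 of them host-checked, from low levels. In either of the fits behind that check 4 of the 10 were called. Prf1, perforin, was the most abundant at 7.51, 9.05 and 11.5 CPM in P1 and 0.41, 1.49 and 1.45 CPM in CP1. Summed over the 10 the level was 19.2, 30.4 and 22.7 CPM in P1 and 2.29, 3.61 and 3.14 CPM in CP1. Markers of B and plasma cells fell in 3 of 8 (0 host-checked), in 1 without CP1 replicate 3 or P1 replicate 2 and in 5 without CP1 replicate 1 or P1 replicate 3. Of 8 neutrophil markers 2 were higher (0 host-checked, 1 called without CP1 replicate 2, CP1 replicate 3, P1 replicate 2 or P1 replicate 3), and 6 of the 8 followed the uroplakin order within CP1.

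Hox genes, which record position along the body axis, are given by cluster, in lists drawn up after values were seen. In the Hoxb cluster 7 of 9 genes fell (3 host-checked, 4 called without P1 replicates 1 and 2) and 0 rose (1 without P1 replicate 3). Hoxb7 stood at 31.3, 44.5 and 47.1 CPM in P1 and 1.40, 2.08 and 2.08 CPM in CP1 (log2 -4.46 ± 0.26, adjusted p = 1.011e-04). Hoxb6 and Hoxb8, on either side of it, fell, at log2 -2.39 ± 0.20 and -2.12 ± 0.15. Hoxb13, the member most specific to prostate and tail, was not called at 37.7, 37.7 and 70.8 CPM in P1 and 57.5, 53.7 and 52.8 CPM in CP1, and P1 replicate 3 stood apart from the other P1 tumours. In the Hoxa cluster 3 of 11 rose and 1 fell, with a median of log2 0.03. Hoxa11 and Hoxa13 rose, at 26.1, 21.9 and 24.6 CPM in P1 and 83.4, 76.8 and 75.1 CPM in CP1 (log2 1.70 ± 0.12, adjusted p = 1.801e-04) and 12.1, 5.70 and 6.94 CPM in P1 and 34.6, 50.7 and 40.1 CPM in CP1 (log2 2.34 ± 0.32, adjusted p = 0.0019). Hoxa7 fell, at log2 -0.90 ± 0.18 and lost its call without CP1 replicates 2 and 3 (adjusted p = 0.112). In the Hoxd cluster 4 of 6 fell and 0 of these were host-checked. The falls there numbered 2 without CP1 replicate 1 or P1 replicate 1 and 0 without P1 replicates 1 and 2.

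Other developmental transcription factors differed by family. Foxf1 and Foxf2, factors of gut and urogenital mesenchyme, stood at 2.80, 1.66 and 1.90 CPM in P1 and 37.9, 46.9 and 41.2 CPM in CP1 (log2 4.30 ± 0.24, adjusted p = 9.640e-05) and at 8.94, 5.10 and 7.62 CPM in P1 and 39.2, 51.4 and 34.5 CPM in CP1 (log2 2.53 ± 0.26, adjusted p = 6.965e-04). Dlx3, a homeobox factor of skin and placenta, rose from 0.596, 0.151 and 0.358 CPM in P1 to 17.6, 14.6 and 18.8 CPM in CP1. Pax8 and Pax9 fell, at log2 -4.77 ± 0.78 and -5.83 ± 0.41. Of 12 mesenchymal markers 6 rose and 2 fell (1 without CP1 replicate 2, CP1 replicate 3, P1 replicate 1 or P1 replicate 3). Snai1 and Zeb2, repressors of Cdh1, rose by log2 2.78 ± 0.34 and 2.50 ± 0.26, and Twist1 fell, at log2 -1.32 ± 0.25. The Twist1 call was lost in both of the fits that make up the host check (adjusted p = 0.106 and 0.139).

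Cell division genes were higher by a modest amount. Of 20 mitotic genes 17 rose (9 host-checked, 0 past 2-fold) and 0 fell, with a median of log2 0.93. Without P1 replicates 1 and 2, 10 rose, and without CP1 replicates 2 and 3, 11 did. Within P1, replicate 3, with the fewest seminal vesicle transcripts, was highest in 17 of the 20. Kif20a, a kinesin of the dividing midzone, stood at 31.9, 24.9 and 25 CPM in P1 and 63.7, 71.6 and 66.4 CPM in CP1 (log2 1.30 ± 0.14, adjusted p = 7.624e-04). Top2a, which untangles DNA, rose by log2 1.05 ± 0.15. Mki67 rose by less, log2 0.49 ± 0.13, and lost its call in 6 of the 9 fits that left tumours out. Kif12, a kinesin of kidney and liver ducts rather than of mitosis, stood at 69.8, 90.9 and 87.4 CPM in P1 and 0.0684, 0.0622 and 0.0392 CPM in CP1 (log2 -10.39 ± 0.25, adjusted p = 1.397e-05).

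Other genes among the largest host-checked changes had more scattered roles. Lrtm1, a leucine-rich membrane protein, stood at 0.507, 0.211 and 0.25 CPM in P1 and 167, 33.1 and 139 CPM in CP1 (log2 8.42 ± 0.81, adjusted p = 5.411e-04), and CP1 replicate 2 was the lowest CP1 tumour. Il13ra2, a decoy receptor of interleukin-13, stood at 0.686, 1.39 and 0.394 CPM in P1 and 60.1, 79 and 94.5 CPM in CP1 (log2 6.54 ± 0.45, adjusted p = 1.883e-04). Nell2, a secreted neuronal protein, stood at 0.864, 0.633 and 0.572 CPM in P1 and 102, 79.4 and 43.3 CPM in CP1 (log2 6.74 ± 0.41, adjusted p = 1.166e-04). Every CP1 tumour stood far above P1 in these 3. Tdo2, which opens the ring of tryptophan, stood at 2.56, 1.06 and 1.47 CPM in P1 and 64.1, 68.2 and 270.2 CPM in CP1, with CP1 replicate 3 highest. Ly6f, a surface protein whose near relatives could share reads, stood at 0.596, 0.332 and 0.537 CPM in P1 and 99, 20.0 and 63.1 CPM in CP1. Hao1, a peroxisomal oxidase of liver, ran against the liver genes, at 0.387, 0.0302 and 0.0358 CPM in P1 and 23.8, 12.2 and 19.4 CPM in CP1 (log2 6.85 ± 0.80, adjusted p = 0.0010). Among the falls Cym, the milk-clotting protease chymosin, and Clrn3 and Ces2a, a membrane protein and a carboxylesterase of gut, had 0 counts in CP1 and were at least 246-fold, at least 412-fold and at least 231-fold lower. Vsig1, a junction protein of stomach epithelium, had 1 count over CP1 and was 4662-fold (exact 95% interval 836 to 184176) lower. Slc24a2, a calcium exchanger of neurons and cones, stood at 1.46, 0.271 and 0.25 CPM in P1 and 185, 141 and 169 CPM in CP1 (log2 7.92 ± 0.65, adjusted p = 3.120e-04). Cdh6, a cadherin of kidney, fell from 79.3, 58.9 and 26.6 CPM in P1 to 0.103, 0.342 and 0.274 CPM in CP1, in the seminal vesicle order within P1. Misp, an actin-bundling protein of epithelia, fell from 132, 180.4 and 183 to 0.205, 0.529 and 0.47 CPM, and Duox2, an oxidase of mucosal surfaces, from 44.5, 85.2 and 98.5 to 0.137, 0.653 and 0.196 CPM.

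Large housekeeping families held few calls in the fit of all 6 tumours, but their counts moved with the tumours left out. Of 77 cytosolic ribosomal protein genes 0 rose and 1 fell, with a median of log2 -0.16. Without P1 replicates 1 and 2, 24 of them fell, without P1 replicate 1 alone 3 fell, and without P1 replicate 3, 6 rose. Of 86 genes of complex I and ATP synthase 1 rose and 3 fell. The falls numbered 39 without P1 replicates 1 and 2, 13 without P1 replicate 1, and 0 or 1 without P1 replicate 2 or any one CP1 tumour, and 5 members rose without P1 replicate 3. Of 48 proteasome genes 6 rose and 2 fell. The rises numbered 18 without P1 replicate 3, 2 without P1 replicate 2, 3 without P1 replicate 1 or CP1 replicate 3, and 0 in both of the fits that make up the host check, and the falls 1 without CP1 replicate 2 or P1 replicate 2.

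**Figure D5:**
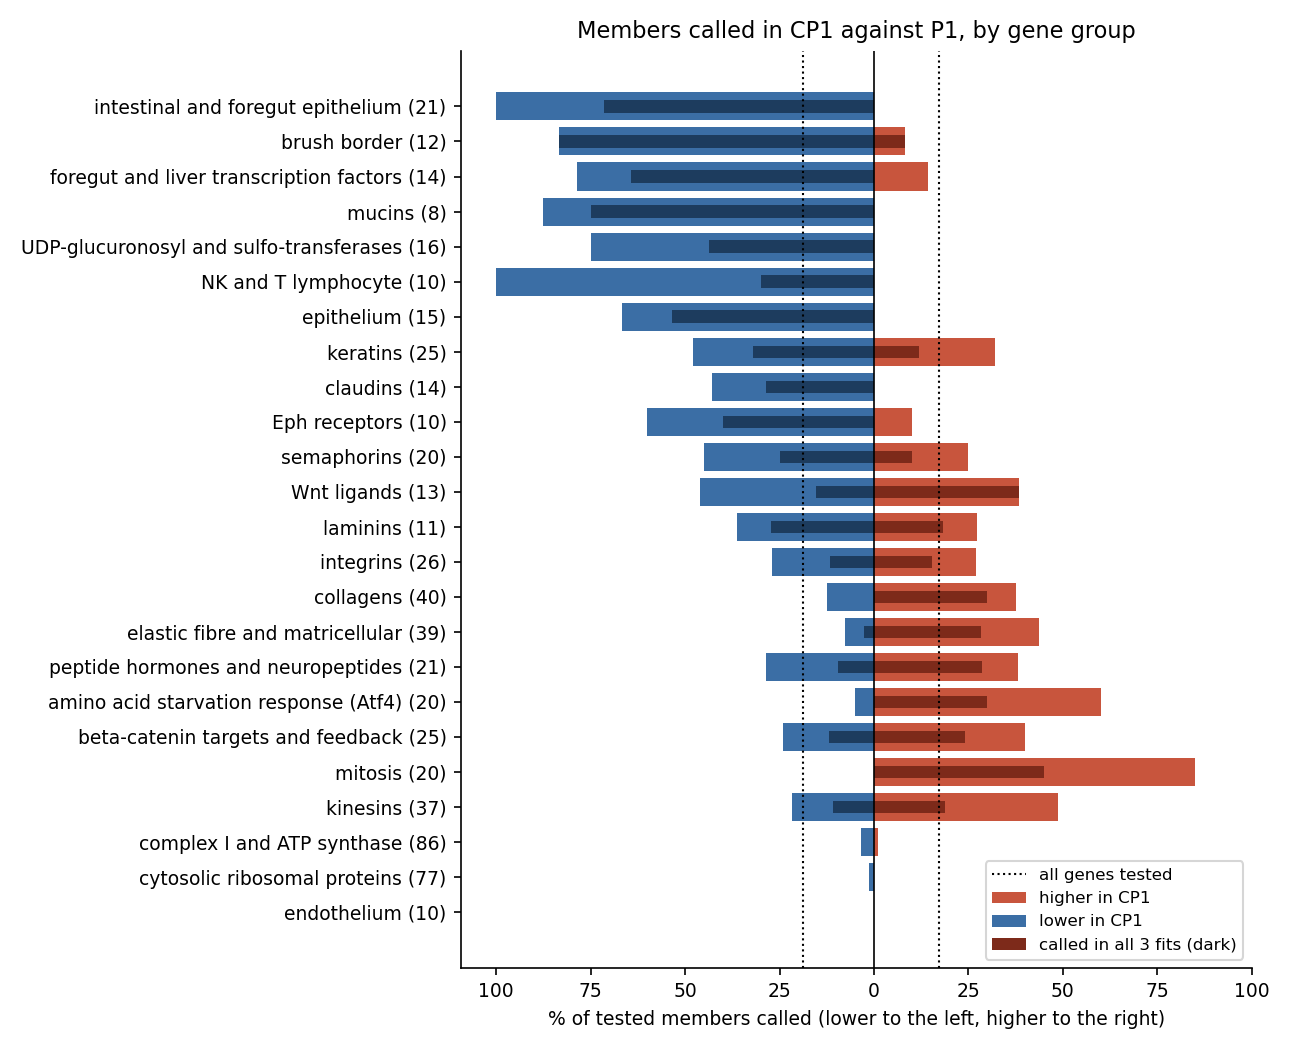
Share of the tested members of each gene group (number in brackets) called higher (red, right) or lower (blue, left) in CP1, with the share called in all 3 fits as the dark inner bar. Dotted lines mark 17.3% and 18.7%, the shares of all genes tested, and ribosomal and endothelial groups lie well inside them in the fit of all 6 tumours.

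Some called genes kept the order of a host signal. Grhl3, a factor of urothelium and skin, stood at 0.0894, 0.181 and 0.179 CPM in P1 and 1.85, 26.5 and 19.1 CPM in CP1 (log2 6.70 ± 1.10, adjusted p = 0.0039). Without CP1 replicates 2 and 3 its log2 fold change was 3.64, and without P1 replicates 1 and 2 it was not called (adjusted p = 0.109). The water channel Aqp3 stood at 0.745, 6.70 and 6.01 CPM in P1 and 6.46, 100.3 and 80.3 CPM in CP1, and its log2 fold change went from 3.80 to 0.56 without CP1 replicates 2 and 3. Gstm1, a glutathione transferase with near copies, went from 4.07 to 1.54 and was not called without P1 replicates 1 and 2 (adjusted p = 0.131). Aqp3 lost its call in 7 of the 9 fits that left tumours out. In these 3 CP1 replicate 1, with the fewest uroplakin counts of the CP1 tumours, was the lowest CP1 tumour. Other genes met the ordering rule only at their low end. Brinp3, a secreted neuronal protein, stood at 3.49, 1.84 and 1.43 CPM in P1 and 678, 492 and 452 CPM in CP1 and Adcy1, an adenylyl cyclase of neurons, at 2.50, 1.54 and 1.04 CPM in P1 and 279, 189.7 and 389 CPM in CP1. Their order followed the seminal vesicle within the low P1 values, and both calls were host-checked.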

How the data were processed

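The authors deposited 1 table of read counts per tumour, whole numbers for 47069 Ensembl gene IDs. The submitters' processing notes name GRCm38.p3, and, without their roles, HTSeq 0.6.0, TopHat2 2.1.0, DESeq2 1.14.1, Bowtie2 2.2.6.0 and FastQC 0.11.4. Whether counting used strand is not stated in the labels, so reads of overlapping and antisense genes cannot be told apart, and near-identical copies may share reads. Symbols came from GENCODE M21, which matched 46574 IDs. For the tests, edgeR 4.0.16 under R 4.3.3 was run on the deposited counts (TMM scaling, genes kept by filterByExpr at a minimum count of 10, quasi-likelihood test, 1 mean per line), adjusted by Benjamini-Hochberg with calls at 0.05. A second test, glmTreat, was set against a 2-fold change. The script was tested on simulated data. CPM are means ± SD over 3 tumours where not listed singly. A gene followed a host order when its values ranked as the host transcripts did within a line, with the highest at least 2-fold the lowest. Ratios with 1 to 3 counts in a line carry exact 95% intervals, and lower bounds use a floor of 3 counts over the line. Intervals and floors cover counting error only. Libraries of 25081535 to 37180721 counts were compared. Alternatives were DESeq2 1.42.0, other scalings and filters, all 10 tumours in the fit, and tumours left out. Named genes were Ctnnb1, 15 host-checked rises and 15 falls, and the 10 most abundant genes past 2-fold in each direction. The 15 were the largest with at least 5 CPM in the higher line, no overlap between lines and no seminal vesicle or uroplakin order. The 10 had no such order either. The 5 largest host-ordered rises and falls and up to 3 members per list and direction were added. Some further members were chosen for their role after their values were seen. Members and lists were chosen with earlier results of these data known. Some items are not reported here.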

Additional observations from a re-analysis of the deposited data

Results flagged for a closer look

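The 30 genes looked at here were the 15 largest host-checked rises and 15 largest falls among genes that met 3 further conditions. The lines did not overlap, the higher line averaged at least 5 CPM, and no seminal vesicle or uroplakin order was followed. Of the 30, 18 also differed between CP2 and CP1 tumours (edgeR, all 10 tumours in the fit, adjusted p below 0.05). This was tested as the difference of CP2 from CP1. Of all genes tested 7635 of 17644 (43.3%) did so. The 30 were chosen for extreme values in CP1, which also enter this difference and favour one towards P1. P1 is the control of both lines. Among genes high in CP1, the log2 difference of CP2 from CP1 was -9.43 for Nell2, -8.31 for Ly6f, -7.37 for Tdo2, -5.74 for Cyp11b1, -5.64 for Calcb and -5.50 for Cck. It was smaller for Lrtm1 at -4.22, Chrna1 at -3.61, Il13ra2 at -3.58, Cd200r4 at -2.74, Grik2 at -2.37, Gria4 at -1.99 and Nkain2 at -0.62. Gm773, with a fitted value of -11.03, had 874 counts in CP1 and 0 in CP2 and was at least 297-fold lower in CP2. Among genes near 0 in CP1, Wnt7a was higher in CP2 by 5.26 on the log2 scale. Vsig1 had a fitted difference of 6.47 and a ratio of 122 (exact 95% interval 21.4 to 4840), and Anks4b a fitted difference of 3.27 and a ratio of 12.7 (1.91 to 541). Svs4, at 6.48, is a seminal vesicle transcript of the host, which took up to 0.168% of the counts of a CP2 tumour together with its relatives.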

How the results depend on the processing

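Removing the tumours richest in seminal vesicle (P1 replicates 1 and 2) or uroplakin transcripts (CP1 replicates 2 and 3) changed the counts of calls most. Without P1 replicates 1 and 2, 1820 genes were higher and 1871 lower, 496 and 595 of them past 2-fold. Without CP1 replicates 2 and 3, 1504 were higher and 1546 lower, 613 and 844 past 2-fold. Both leave 1 tumour in a line, which is assumed to vary like the other line, and the fits hold fewer samples. Leaving out 1 tumour at a time gave 2165 to 2848 higher, 2297 to 3139 lower, 715 to 951 higher past 2-fold and 988 to 1226 lower past 2-fold. DESeq2's Wald test called 3438 higher and 3600 lower, and the other scalings, filters and fits also kept these overall counts within 1.5 times. Of 1200 counts of gene-group members under an alternative, 156 moved by more than 1.5 times. Of 175 named called genes 156 kept call and direction in all 15 alternatives, 19 lost the call in at least 1, and 0 changed direction. Of the genes not called, Gata6 was at -0.45 without CP1 replicates 2 and 3 and between -0.04 and 0.31 with 1 tumour left out, and Hoxb13 at -0.36 without P1 replicates 1 and 2. No paired analysis was possible because the sample numbers in the titles of P1 and CP1 tumours have none in common. At this depth, levels under about 0.1 CPM rest on 3 counts or fewer.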
